A study of Homo sapiens with 6 samples.

Results

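The immediate early genes and regulators FOS, FOSB, JUN, JUNB, JUND, EGR1, EGR2, EGR3, IER2 and SRF were followed in SK-N-BE(2) cells, an established human neuroblastoma line, after exposure to NEN. These 10 genes were taken by name from the 35130 gene names listed for each library, and 7 of them (all but FOSB, EGR2 and EGR3) were among the 12576 genes tested, whose mean over the 6 libraries reached 1 TPM (transcripts scaled by their length and by the library total). RNA was sequenced from 3 libraries of cells treated with the solvent DMSO and 3 libraries of cells treated with 1 µM NEN, all for 24 h. The line carries amplified MYCN, was derived from a bone marrow metastasis and was treated as 1 unmodified line, so the groups differ by the agent alone as far as the labels say. The labels give the agent only as NEN. In published neuroblastoma work that abbreviation stands for niclosamide ethanolamine, a mitochondrial uncoupler, and this is background rather than a statement of the labels. The labels call the libraries biological replicates without saying how the cultures were separated, so p-values measure the spread between these libraries.

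Immediate early genes are transcribed within minutes of a growth factor, depolarisation or stress signal, without new protein synthesis, and their mRNAs are short-lived. FOS and JUN proteins pair through leucine zippers into the AP-1 factor, EGR proteins bind GC-rich sites through zinc fingers, and SRF is the constitutive factor that, with ERK-responsive cofactors of the ELK family or actin-responsive cofactors of the MRTF family, turns on many of the others. In neuronal and neural crest cells these genes report recent signalling through the RAS-ERK and calcium pathways. A level read at 24 h does not show the early burst.

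Windows of 250 bases before the RefSeq gene start (GRCh38.p14) hold candidate control elements of these genes, and 9 of the 10 genes had an entry. The windows of EGR1 and JUN, which fell, and of JUND and SRF, which had higher mean levels, are printed 5′ to 3′ with matches in capitals, for EGR1 from chr5:138465229-138465478 on the plus strand, for JUN from chr1:58784048-58784297 on the minus strand, for JUND from chr19:18281623-18281872 on the minus strand and for SRF, at the first of its 2 listed starts, from chr6:43171019-43171268 on the plus strand. The files used hg19, so these positions belong to the sequences alone.
EGR1: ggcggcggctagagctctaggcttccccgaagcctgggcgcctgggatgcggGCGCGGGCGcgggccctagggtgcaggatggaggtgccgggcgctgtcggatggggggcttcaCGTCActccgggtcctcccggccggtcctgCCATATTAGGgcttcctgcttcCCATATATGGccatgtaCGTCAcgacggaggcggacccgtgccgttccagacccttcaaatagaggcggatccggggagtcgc
JUN: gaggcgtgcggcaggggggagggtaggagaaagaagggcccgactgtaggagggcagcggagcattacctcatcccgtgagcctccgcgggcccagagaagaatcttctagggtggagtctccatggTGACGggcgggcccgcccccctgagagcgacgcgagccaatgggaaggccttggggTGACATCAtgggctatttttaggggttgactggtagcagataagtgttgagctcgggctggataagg
JUND: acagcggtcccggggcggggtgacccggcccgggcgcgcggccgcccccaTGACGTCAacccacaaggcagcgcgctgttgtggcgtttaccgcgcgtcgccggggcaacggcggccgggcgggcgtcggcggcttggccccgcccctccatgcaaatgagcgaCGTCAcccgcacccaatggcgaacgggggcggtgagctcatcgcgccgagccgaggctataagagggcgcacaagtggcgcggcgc
SRF: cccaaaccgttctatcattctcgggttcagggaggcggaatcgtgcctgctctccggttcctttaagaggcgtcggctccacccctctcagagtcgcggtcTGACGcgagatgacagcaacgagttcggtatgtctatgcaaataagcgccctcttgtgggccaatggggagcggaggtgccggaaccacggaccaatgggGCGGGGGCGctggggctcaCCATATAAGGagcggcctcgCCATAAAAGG
Capitals mark the CArG box (the SRF site, searched under that name), the cAMP response element TGACGTCA and its TGACG core, which overlaps it, the EGR site GCGNGGGCG, and TGACATCA, an AP-1-like element of the JUN promoter, all on both strands. The AP-1 site TGANTCA was searched as well and was in none of the members' windows, against 6.57% of all 35116 windows and 2.82% of the 16148 windows with at least 60% GC. EGR1 held 2 CArG boxes, at -105 to -96 and -83 to -74 from the start, and SRF held 2, at -30 to -21 and -10 to -1. A CArG box was found in 3 of the 9 genes, the other being EGR2. That was 3 of their 12 windows, against 1.16% of all windows and 0.780% of the GC-rich ones. Elements beyond these 250 bases were not searched, so a gene without a match here may hold one farther away. The TGACG core was found in all 9 genes, in 9 of their 12 windows, against 21.2% of all windows and 27.4% of these GC-rich windows. The full TGACGTCA was found in JUND, at -200 to -193, and in 1.65% of all windows and 2.38% of the GC-rich ones, and TGACATCA in JUN, at -67 to -60, and in 2.37% and 0.898% of them. EGR1 and SRF each held an EGR site, present in 8.41% of all windows and 17.2% of the GC-rich ones. The box TATAAA, searched on the gene strand, was found in FOS, FOSB and JUNB and in 6.80% of all windows and 1.77% of the GC-rich ones. A match of letters is a description of the window and not evidence of binding in these cells.

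The libraries were those of neuroblastoma cells by their markers. All 9 neuroblastoma markers were tested, summed to between 5121 and 6322 TPM in the 6 libraries, and 5 of them rose (DBH, TH, HAND2, MYCN and ISL1). MYCN, the amplified oncogene, rose by 0.33 ± 0.08 (adjusted p = 0.0169 by limma), a call lost with plain settings (0.0503) and without NEN replicate 1 (0.0632). Summed stromal markers were 16.1 to 20.9 TPM with DMSO and 25.9 to 31.2 TPM with NEN, of which PDGFRB held between 8.59 and 12.6 TPM with DMSO and between 19.3 and 24.3 TPM with NEN. The rest of the stromal list did not rise with it. COL1A1 (-0.05 ± 0.45), COL1A2 (-0.49 ± 0.39) and DCN (-0.34 ± 0.21) did not pass. COL3A1 and LUM had lower means with NEN, but these means lay under 1 TPM and the genes were not tested. Summed endothelial markers were 0.690 to 1.90 TPM, blood ones 0.150 to 1.76 TPM and epithelial ones 1.18 to 3.16 TPM over all libraries, and KDR, CD3E, HBB, KRT5 and KRT14 were listed at 0 throughout. In bulk libraries a smaller share of expressing cells and less RNA per cell cannot be told apart. Between 17285 and 18041 genes were above 0 in each library, and TPM keeps no record of depth, so depth is unknown.

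In NEN-treated cells EGR1 and JUN fell and JUND rose, while FOS, JUNB, IER2 and SRF did not pass the test. Each difference below is the NEN mean less the DMSO mean of log2(TPM + 1) ± SE, a scale that shrinks the changes of low genes, with p-values from limma adjusted over all genes tested (threshold 0.05). So 1 of the 7 tested members passed the threshold upwards and 2 downwards, where 13.5% and 16.5% of all genes tested did and 30.0% in either direction. After a correction of each library for length and GC content, chosen after the data were seen, 0 members passed upwards and 3 downwards (EGR1, IER2 and JUN), where 30.5% of all genes passed in either direction. The groups did not overlap for 4 of the 7 tested members, 2 higher (JUND and SRF) and 2 lower (EGR1 and JUN), where 46.8% of all tested genes were so separated, 21.8% higher and 25.0% lower. With 7 genes tested, neither count is read as particular to these genes. The median of the 7 tested members was 0.13, and that of all genes tested -0.02.

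TPM is scaled by transcript length, which allows levels to be set beside each other between genes, but the annotation and the summing to genes were not given in the sources used here, so the order is that of the deposited values. In DMSO cells JUND was the most abundant member, IER2 and JUNB followed with overlapping ranges, and JUN, EGR1, SRF, FOS and EGR3 came next, each range separate from its neighbour. EGR2 and FOSB came last and overlapped. In NEN cells JUND was again the highest and JUNB and IER2 again overlapped. JUN then overlapped with SRF, and EGR1 had moved below SRF. EGR1 exceeded 58.3% of tested genes by its DMSO mean and 35.5% by its NEN mean, while JUND exceeded 90.6% and 94.0%.

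**Figure D1:**
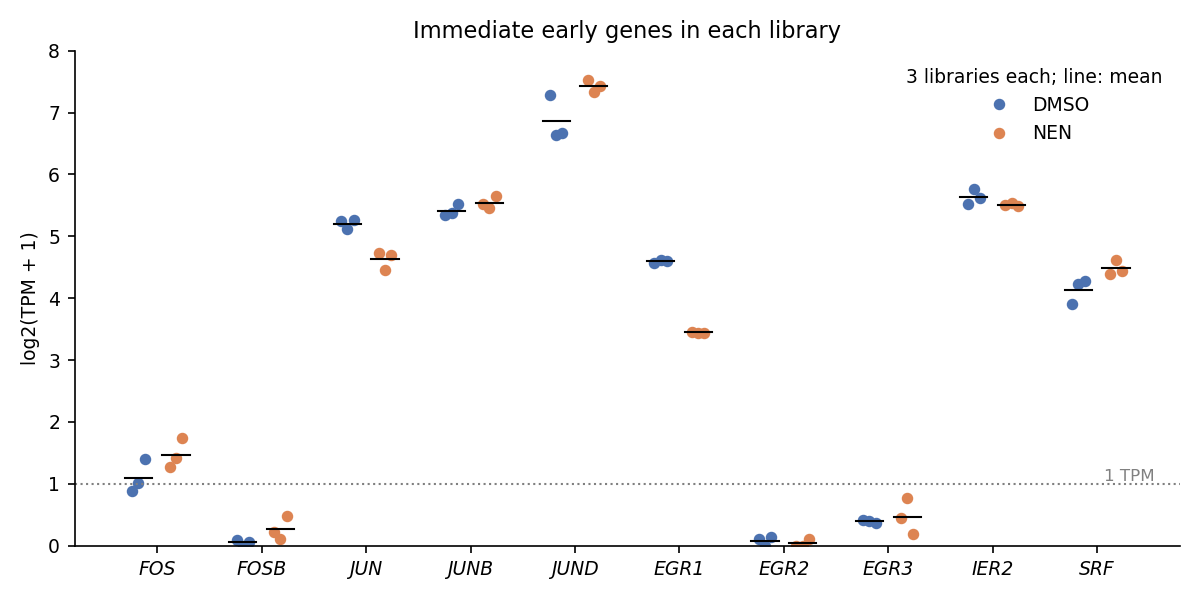
Levels of the 10 genes as log2(TPM + 1) in each of 3 DMSO (blue) and 3 NEN (orange) libraries, with the mean of each group as a line and 1 TPM dotted. The EGR1 groups are far apart with almost no spread inside them, the JUN groups are separate, and FOSB, EGR2 and EGR3 lie under 1 TPM in every library.

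FOS, the founding partner of JUN in AP-1, was close to the detection filter. It had 0.845, 1.01 and 1.65 TPM in the DMSO libraries and 1.40, 1.68 and 2.32 TPM in the NEN libraries. The groups overlapped, and the difference of 0.37 ± 0.25 did not pass (adjusted p = 0.298 by limma). Its 95% confidence interval, -0.21 to 0.96, leaves room for a change in either direction. FOSB, a FOS relative prominent in stimulated neurons, had 0.0687, 0 and 0.0465 TPM with DMSO and 0.160, 0.0793 and 0.401 TPM with NEN. All NEN values lay above all DMSO values, but at under 1 TPM the gene was not tested, and in limma without a filter it had an adjusted p = 0.271. FOSL2, the FOS relative known as FRA-2, was the main mRNA of the family in this line. It had 29.4, 34.9 and 34.5 TPM with DMSO and 22.1, 24.3 and 24.3 TPM with NEN, with no overlap, and fell by 0.46 ± 0.09 (adjusted p = 0.0103 by limma). FOSL1, or FRA-1, stayed between 0.194 and 0.880 TPM in all 6 libraries and was not tested.

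Among the JUN genes, which can pair with FOS proteins or with each other, JUN itself fell. It had 36.8, 33.7 and 37.4 TPM with DMSO and 25.7, 20.9 and 24.9 TPM with NEN. Every NEN library lay below every DMSO library. The group means were 36.0 ± 2.0 and 23.8 ± 2.6 TPM (SD, n = 3), a difference of -0.58 ± 0.10 (adjusted p = 0.00576 by limma), which remained past the threshold whichever library was left out (adjusted p between 0.0140 and 0.0225). JUNB, a weaker activator that often restrains JUN, had 39.5, 40.5 and 45.1 TPM with DMSO and 45.2, 42.8 and 49.0 TPM with NEN. These ranges overlapped, and the difference of 0.13 ± 0.08 did not pass (adjusted p = 0.292, 95% interval -0.07 to 0.33). It turned to -0.11 ± 0.08 (adjusted p = 0.350) after the length and GC correction.

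JUND, the constitutively expressed member and the least dependent on growth signals, had 154.9, 98.5 and 100.4 TPM with DMSO and 184.1, 160.7 and 171.7 TPM with NEN. DMSO replicate 1 stood well above the other DMSO libraries and close to NEN replicate 2, yet the groups did not overlap. JUND rose by 0.57 ± 0.17 (adjusted p = 0.0388 by limma), from 117.9 ± 32.0 to 172.2 ± 11.7 TPM. The call was lost in 8 of 15 alternatives. These were the removal of DMSO replicate 2 (adjusted p = 0.116) or 3 (0.110) or of NEN replicate 1 (0.112), 2 (0.0729) or 3 (0.0935), no filter (0.0909), limma's plain settings (0.0725) and the length and GC correction, with which the difference was 0.24 ± 0.21 (0.418). Leaving out DMSO replicate 1 gave 0.78 (adjusted p = 0.00113).

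The make-up of JUN family mRNA differed between the groups. JUN made up 15.9%, 19.5% and 20.5% of the summed JUN, JUNB and JUND TPM with DMSO and 10.1%, 9.31% and 10.2% with NEN. JUND made up 67.0%, 57.1% and 54.9% with DMSO and 72.2%, 71.6% and 69.9% with NEN. Thus the shares of both genes were separate between the groups, and DMSO replicate 1 was the nearest to the NEN libraries. The ratio of JUND to JUN TPM was 4.21, 2.93 and 2.68 with DMSO and 7.17, 7.69 and 6.88 with NEN. That of JUNB to JUN was 1.07, 1.20 and 1.21 with DMSO and 1.76, 2.05 and 1.97 with NEN. Each ratio was higher in all 3 NEN libraries than in any DMSO library. The exact permutation test, two-sided, gave p = 0.1 for each, which is the smallest that 3 against 3 allows. JUN was lower and JUND higher in every NEN library, so the order of their ratio follows from that and its p adds nothing. Both ratios share the lower JUN as denominator and are not separate results. They are uncorrected, and after the length and GC correction JUND differed by 0.24, JUNB by -0.11 and JUN by -0.63. JUN family TPM summed to 231.2, 172.7 and 182.9 with DMSO and 255.0, 224.4 and 245.7 with NEN, with overlap. FOS, FOSB, FOSL1 and FOSL2 together summed to 30.6, 36.7 and 37.1 TPM with DMSO and 23.9, 26.8 and 27.6 TPM with NEN, of which FOSL2 made up between 88.2% and 96.1%. The JUN family sum was thus between 4.71 and 7.55 times the FOS family sum with DMSO and between 8.37 and 10.7 times with NEN.

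**Figure D2:**
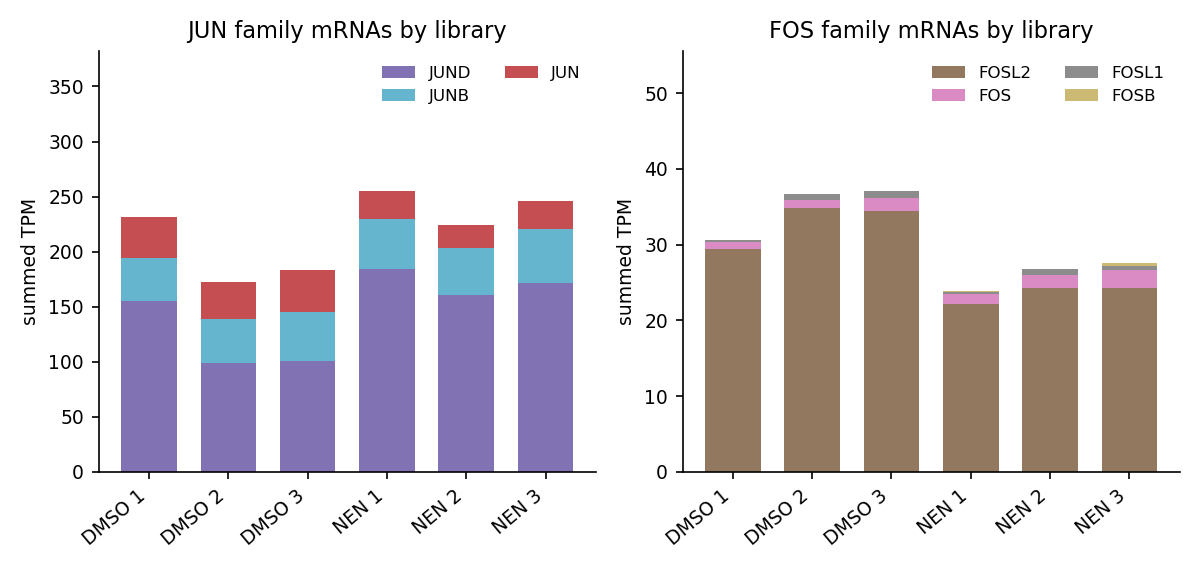
Summed TPM of JUN family mRNAs (left) and FOS family mRNAs (right) in each library, stacked by gene. JUND is the largest block on the left in every library and the JUN block is smaller in the NEN libraries, while FOSL2 fills nearly all of each bar on the right.

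EGR1, a zinc finger factor induced by ERK signalling and SRF, showed the clearest change of the 10 genes. It had 22.7, 23.6 and 23.3 TPM with DMSO and 10.0, 9.80 and 9.88 TPM with NEN. The 2 sets were far apart, and the SD within each was 0.50 and 0.11 TPM. The difference was -1.15 ± 0.08 (adjusted p = 0.000323 by limma, 95% interval -1.35 to -0.95), and the NEN mean was 0.427 times the DMSO mean. This was the 95th most negative of the 2074 genes that fell, 158 of which, or 1.26% of all genes tested, had a difference under -1. Leaving out each library in turn gave -1.17 to -1.14 (adjusted p between 0.00112 and 0.00318), and the length and GC correction gave -1.18 ± 0.08. EGR2, best known from myelinating glia and hindbrain, had 0.0758, 0 and 0.103 TPM with DMSO and 0, 0 and 0.0773 TPM with NEN. EGR3, a relative with roles in neurons and muscle spindles, had 0.335, 0.325 and 0.287 TPM with DMSO and 0.363, 0.707 and 0.141 TPM with NEN. Both overlapped between groups, lay under 1 TPM and were not tested. EGR4 was listed at 0 in all 6 libraries, so EGR1 carried nearly all EGR mRNA listed for this line.

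The NAB proteins are corepressors that bind EGR factors, and NAB2 is itself a textbook target of EGR1. NAB2 had 15.0, 17.0 and 18.5 TPM with DMSO and 21.7, 24.7 and 21.8 TPM with NEN and rose by 0.42 ± 0.11 (adjusted p = 0.0249 by limma). Its call did not last without a filter (adjusted p = 0.0504), after the length and GC correction (0.24, adjusted p = 0.105), or on leaving out DMSO replicate 1 (0.0525) or 2 (0.0616) or any 1 NEN library (0.0529, 0.0841 and 0.0571 for replicates 1 to 3). NAB1 had 45.7 ± 4.6 and 47.7 ± 1.8 TPM (0.07 ± 0.09, adjusted p = 0.607). The ratio of EGR1 to NAB2 TPM, chosen after the values were seen, was 1.52, 1.39 and 1.26 with DMSO and 0.461, 0.397 and 0.453 with NEN. EGR1 mRNA was thus more abundant than NAB2 mRNA in each DMSO library and less abundant in each NEN library.

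IER2, a small nuclear protein induced early by serum, had 44.8, 53.6 and 48.0 TPM with DMSO and 44.3, 45.4 and 44.1 TPM with NEN. The groups overlapped and the difference of -0.12 ± 0.08 did not pass (adjusted p = 0.288, 95% interval -0.31 to 0.07). After the length and GC correction it was -0.28 ± 0.07 and passed (adjusted p = 0.0257 by limma), as in no other alternative. SRF had 14.0, 17.7 and 18.5 TPM with DMSO and 20.1, 23.7 and 20.7 TPM with NEN. All NEN libraries lay above all DMSO libraries, but the difference of 0.35 ± 0.13 did not pass (adjusted p = 0.0778), nor did it in any alternative (adjusted p between 0.0663 and 0.256).

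**Figure D3:**
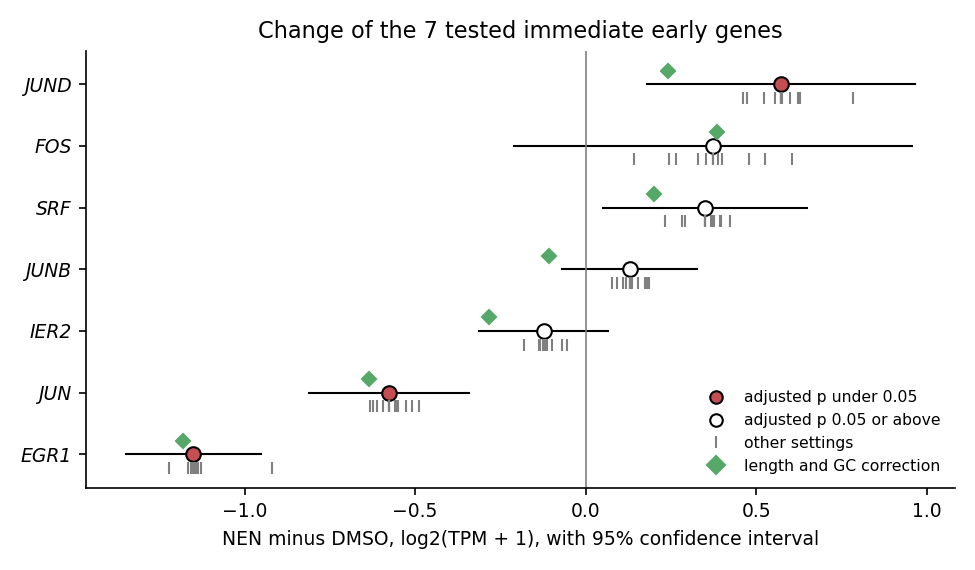
Difference between NEN and DMSO for the 7 tested genes on the log2(TPM + 1) scale with its 95% confidence interval (line), filled where the adjusted p is under 0.05, with the value after length and GC correction (green) and under the other alternatives (grey ticks). EGR1 at -1.15 and JUN at -0.58 stay on their side of 0 and past the threshold under all settings shown, while JUND moves from 0.57 to 0.24 after the correction.

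JUND and JUNB are among the more GC-rich transcripts, and in these libraries the difference between the groups moved with GC content. The JUND transcript has 69.7% GC, JUNB 64.9%, IER2 61.7%, SRF 60.9%, JUN 56.7%, EGR1 55.4% and FOS 52.6%. Among coding genes tested with at least 65% GC (465 genes) the median difference was 0.27, with 34.4% called higher and 5.59% lower. Among those under 45% GC (4183 genes) it was -0.11, with 6.77% called higher and 20.9% lower. After the correction the median of the high band was -0.01 and that of the low band -0.00015. By library, the median deviation of genes in the high band from their own mean over all libraries was -0.27, -0.08 and -0.05 in DMSO replicates 1 to 3 and 0.16, 0.15 and 0.10 in NEN replicates 1 to 3. DMSO replicate 1, which held the most JUND of the DMSO libraries, was thus the lowest for the band as a whole. JUN, JUNB, JUND and IER2 are genes with 1 exon, and the 250 coding genes tested with 1 exon had a median of 0.02, against -0.02 for those with more. The part of GC content in the JUND difference was not tested beyond these values.

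**Figure D4:**
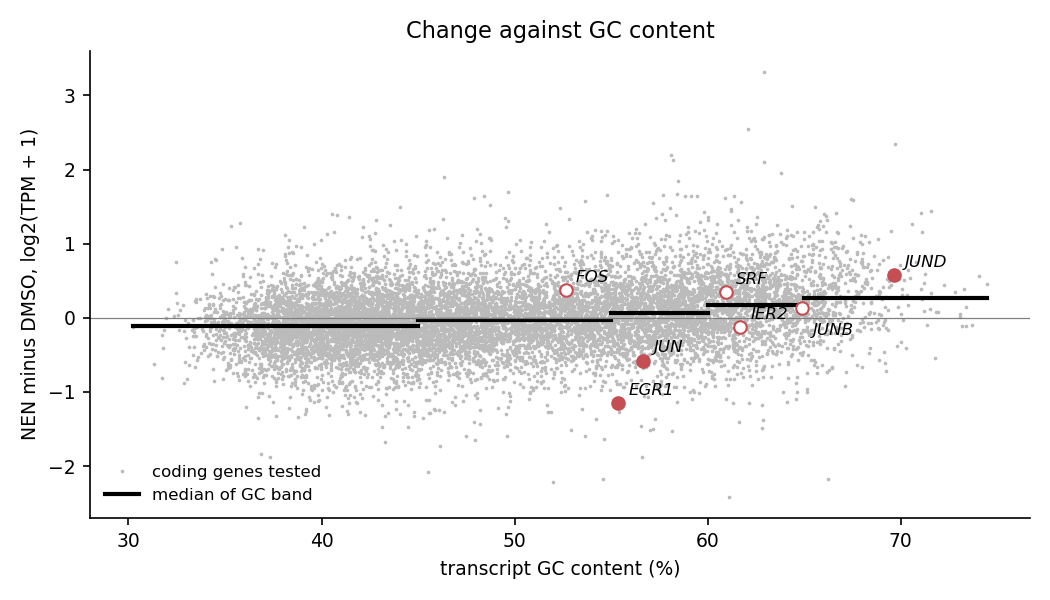
Difference between NEN and DMSO (log2(TPM + 1) scale) against transcript GC content in percent for coding genes tested (grey), with the median of each GC band (black bars) and the 7 tested members (red, filled where the adjusted p is under 0.05). The medians climb from -0.11 under 45% GC to 0.27 at 65% and above, EGR1 and JUN lie well below the median of their band, and JUND lies above its own.

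For the 3 members with the smallest adjusted p, the genes with the most similar profile were found by Pearson's r of log2(TPM + 1) over the 6 libraries, which mainly reflects the separation of the groups. For EGR1 these were POLE3 (r = 0.9999), TUBB4B (0.9992) and TK1 (0.9990), and TK1, the S phase thymidine kinase, went from 127.2 ± 4.4 to 56.0 ± 2.0 TPM. For JUN they were PKD2 (0.9982), LARP1 (0.9973) and METTL2B (0.9971). For JUND they included ZNF341 (0.9981) and AC018755.16 (0.9972).

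Cofactors and dimer partners of these factors included genes called in both directions. Of 5 tested SRF cofactors 1 rose and 1 fell, and of 8 tested AP-1 partners 1 rose and 1 fell. Among all genes tested 13.5% rose and 16.5% fell, and with so few genes neither count is read as particular to these lists. Of 5 tested SRF cofactors, ELK1, an ERK-phosphorylated partner of SRF, rose from 30.9 ± 0.76 to 43.5 ± 4.1 TPM (0.48 ± 0.09, adjusted p = 0.00684 by limma), and ELK3, a relative that can repress, fell by 0.31 ± 0.08 (adjusted p = 0.0261). ELK3 missed the threshold after the length and GC correction (adjusted p = 0.0683) and on leaving out DMSO replicate 2 (0.0787) or any 1 NEN library (0.0799, 0.0645 and 0.0654 for replicates 1 to 3). ELK4 (-0.24 ± 0.18) and MKL2, which encodes MRTF-B (-0.16 ± 0.20), did not pass, and MYOCD was listed at 0. Of 8 tested AP-1 partners, FOSL2 fell and ATF7 rose by 0.44 ± 0.13 (adjusted p = 0.0403). ATF7 missed it with no filter (adjusted p = 0.0846), with plain settings (0.0611) and on leaving out any 1 DMSO library (0.0737, 0.117 and 0.0544 for replicates 1 to 3) or NEN replicate 1 (0.115) or 2 (0.107). BATF3, a JUN partner best known from dendritic cells, had 12.3, 22.7 and 28.6 TPM with DMSO and 11.4, 11.1 and 10.7 TPM with NEN (-0.80 ± 0.27, adjusted p = 0.0590). It passed without DMSO replicate 1 (-1.13, adjusted p = 0.00250), with a minimum of 5 TPM (0.0457) and after the length and GC correction (0.0143). MAFK (0.54 ± 0.21, adjusted p = 0.0932) did not pass and did so with plain settings (0.0253).

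Cytoskeletal genes that SRF drives through MRTF cofactors rose in 9 of 18 tested cases and fell in 1, where 13.5% of all genes tested rose and 16.5% fell, with a median difference of 0.55 against -0.02 for all genes tested. After the length and GC correction 10 rose and 1 fell, with a median of 0.47. This list was chosen with earlier results of these data known, so its counts describe the listed genes and are not independent support. SRF itself did not pass, and the activity of SRF or its cofactors was not tested. CNN2, an actin-binding calponin, rose from 13.6 ± 1.5 to 30.9 ± 0.99 TPM (1.13 ± 0.10, adjusted p = 0.000573 by limma). FLNA, which cross-links actin, rose by 0.54 ± 0.05 and ZYX, a focal adhesion protein, by 0.70 ± 0.10, while TPM1, a tropomyosin, fell by 0.61 ± 0.05. For 13 members of this list all NEN libraries lay above all DMSO libraries, and for 1 below, where 21.8% and 25.0% of all genes tested were so separated. ACTB was listed at 13.7 to 41.2 TPM and ACTG1 at between 2797 and 5170 TPM. These actin mRNAs are near-identical in their coding parts, so how reads were split between them is uncertain. PDGFRB, the one stromal marker that rose (1.06 ± 0.16), moved with this list, and its part in the result was not tested.

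Of 24 other early response genes tested, 6 rose and 5 fell, where 13.5% and 16.5% of all genes did, with a median of 0.09. After the length and GC correction these counts were again 6 and 5. PPP1R15A, a phosphatase subunit of the stress response, rose from 7.15 ± 0.93 to 24.6 ± 3.3 TPM (1.65 ± 0.13, adjusted p = 0.000440 by limma). RHOB, an early-induced small GTPase, fell from 178.4 ± 14.6 to 94.2 ± 3.4 TPM, PHLDA1 fell by 0.91 ± 0.09 and MCL1, an anti-apoptotic protein, by 0.46 ± 0.05. The remaining risers, named after their values were seen, were NR4A1, IER5L, BTG2, PLK3 and ARC, and the remaining fallers GEM and DUSP5. NR4A1, an orphan receptor of the same early response, went from 14.6 ± 1.8 to 28.7 ± 2.1 TPM, and DUSP5, a nuclear ERK phosphatase, from 10.7 ± 0.75 to 6.54 ± 0.77 TPM, so EGR1, JUN and DUSP5 were lower while NR4A1 and ARC were higher in the same libraries. IER3 was listed at 0 in all libraries.

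Upstream kinases of the RAS-ERK, JNK and p38 routes and CREB1 were all tested, and 5 of 22 rose and 4 fell, against 13.5% and 16.5% of all genes, with a median of 0.05. After the length and GC correction 3 rose and 4 fell. MAP2K2, or MEK2, rose from 162.1 ± 4.5 to 208.2 ± 2.0 TPM, a call lost after the length and GC correction (0.11, adjusted p = 0.110 by limma), and MAP2K7, which activates JNK, rose by 0.48 ± 0.09. MAPK9, or JNK2, a JUN kinase, fell by 0.52 ± 0.08 and NRAS by 0.42 ± 0.08. Kinase mRNA does not measure kinase activity, on which these data hold no value. Of 13 tested factors that bind or degrade short-lived AU-rich mRNAs, 3 fell, against 16.5% of all genes, with a median of -0.14. After the length and GC correction 2 rose and 4 fell, with a median of -0.08. ELAVL1, or HuR, which stabilises such mRNAs, fell by 0.27 ± 0.05 (adjusted p = 0.0107). EXOSC10, of the nuclear exosome (-0.31 ± 0.08, adjusted p = 0.0292), lost its call in 7 alternatives, 4 of them the removal of DMSO replicate 1 (0.0588) or 2 (0.0813) or NEN replicate 2 (0.0847) or 3 (0.0932). CNOT1, the scaffold of the deadenylase (-0.36 ± 0.11, adjusted p = 0.0439), lost it in 9 alternatives, among them the removal of any 1 library other than DMSO replicate 3 (adjusted p = 0.0935 without DMSO replicate 1, 0.121 without DMSO replicate 2, and 0.113, 0.129 and 0.0571 without NEN replicates 1 to 3). XRN1, a 5′ exonuclease (0.36 ± 0.12, adjusted p = 0.0666), passed without DMSO replicate 2 (0.0403) and under either scaling (0.0421 and 0.0458) or the correction (0.0127).

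Textbook targets of EGR1 and AP-1 were read from lists of which many members were barely expressed. Of 9 tested EGR1 targets 4 rose, against 13.5% of all genes, with a median of -0.04. TGFB1 rose from 22.7 ± 2.4 to 40.1 ± 3.7 TPM (0.80 ± 0.11, adjusted p = 0.00233 by limma) and TH, which makes the precursor of dopamine, by 0.82 ± 0.12, the others being NAB2 and SYN1. SYN1 (0.34 ± 0.09, adjusted p = 0.0285) lost its call with no filter (0.0511), the correction (0.174) and the removal of DMSO replicate 2 (0.0828) or 3 (0.0540) or of any 1 NEN library (0.0896, 0.0620 and 0.0666 for replicates 1 to 3). After the correction 2 of the 9 rose, TGFB1 and TH. Before the correction 4 thus rose and 0 fell by the threshold, while EGR1 itself fell. F3 and PDGFA, named after their values were seen, were lower in every NEN library than in any DMSO library. Of the 9 tested targets 4 were so separated upwards and 1 (F3) downwards, where 21.8% and 25.0% of all genes tested were. F3 did not pass (-0.61 ± 0.21, adjusted p = 0.0660 by limma), and PDGFA lay under 1 TPM and was not tested. Of 5 tested AP-1 targets 1 rose and 1 fell, where 13.5% and 16.5% of all genes tested did, too few to be read as particular. CCND1, or cyclin D1, fell by 0.67 ± 0.07 and VIM, or vimentin, rose by 0.51 ± 0.05. EZR (-0.12 ± 0.06) and TIMP1 (0.14 ± 0.08) did not pass, though TIMP1 did without DMSO replicate 1 (0.23, adjusted p = 0.0261).

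**Figure D5:**
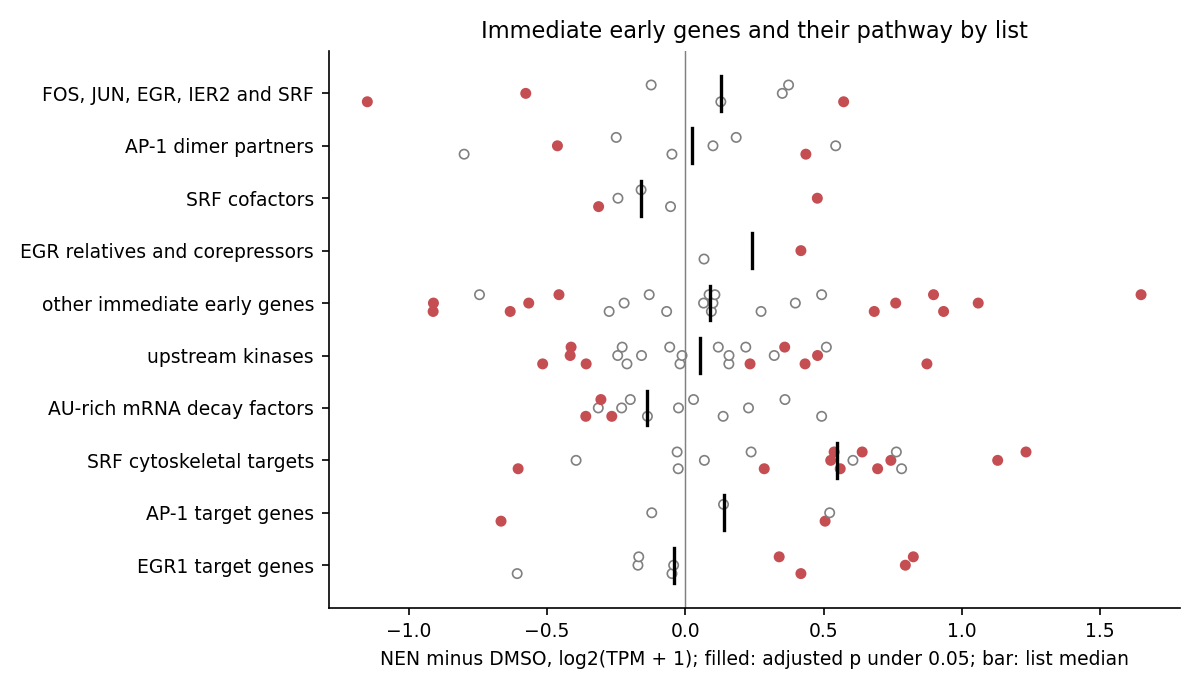
Difference between NEN and DMSO (log2(TPM + 1) scale) for each tested gene of the lists, filled where the adjusted p is under 0.05, with the list median as a bar. Most lists spread on both sides of 0, and the SRF cytoskeletal targets have the highest median, 0.55.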

How the data were processed

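The 6 RNA-seq libraries, 3 from DMSO-treated and 3 from NEN-treated cells, were grouped by the treatment in the labels. Each deposited file holds TPM for 1 library, per the file headers and values, made by the authors with kallisto and hg19, per the submitters' processing notes; the version and annotation were not given in the sources used here. Listed genes sum to between 929054 and 933500 TPM a library. Depth is unknown, so no counting intervals are given. Per the labels' protocols, library text names polyA capture or rRNA removal without choosing.

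Names whose mean over the libraries reached 1 TPM were kept, their values were taken as log2(TPM + 1), and limma 3.58.1 in R 4.3.3 was fitted over all genes with group alone and its trend and robust settings, two-sided, with Benjamini-Hochberg adjustment. Single ratios were tested with scipy 1.17.1. The fit was also run on simulated data, and the outcome is not given here. That simulation had independent noise for each gene, a small share of changed genes and no shift with GC content. In this it differs from these data and does not show how the fit behaves on them. Members and lists were chosen with earlier results of these data known. Of the 173 distinct list symbols 169 matched by symbol and 4 by an older one. Beside the 10 members, the rule names up to 4 genes per list with the smallest adjusted p, and 3 profile neighbours for each of 3 members, of which 1 is not reported here. Marker lists are given as sums, with the members that passed.

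The alternatives tried were no filter or a minimum of 5 TPM, the removal of each library in turn, the replicate number as a block, pseudocounts of 0.1 and 5, median-ratio scaling, quantile normalization and limma without trend and robust settings. Added after the data were seen was a loess correction (span 0.3, degree 1) for transcript length and GC content from GENCODE release 29. Promoter windows came from RefSeq.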

Additional observations from a re-analysis of the deposited data

How the results depend on the processing

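EGR1 and JUN passed the threshold downwards under all 15 alternatives run, and 2 to 3 members were called lower in each. The number called higher, 1 (JUND), became 0 by limma without a filter, with plain settings and with the length and GC correction, and lay between 0 and 1 on leaving out 1 library. At an unadjusted p under 0.05 by limma, 2 members (JUND and SRF) were higher and 2 (EGR1 and JUN) lower without a filter and with plain settings. After the correction 0 were higher and 3 (EGR1, IER2 and JUN) lower. The share of all genes at this unadjusted threshold was not counted, so these counts are not read as particular to the members. JUNB changed sign after the correction (-0.11), and NAB1 did when DMSO replicate 1 was left out (range over the libraries left out -0.014 to 0.13). COL1A1 did with a pseudocount of 5 (0.022) and when 1 library was left out (range -0.58 to 0.30, above 0 without DMSO replicate 1 or NEN replicate 1 or 2). None of these passed the threshold. Over all genes, 3773 were called, between 2582 and 3468 on leaving out 1 library and 356 with an absolute difference of at least 1. Same-numbered libraries did not deviate together over the genes tested (r of 0.01, -0.01 and -0.03), and not every library correlated best with its own number. No pairing is therefore assumed, though these values cannot show whether same-numbered libraries shared a culture or batch. The replicate block called 2977 genes, 1 member higher and 2 lower, and kept EGR1 at -1.15 (adjusted p = 0.00594); among the 7 tested members and 41 list genes refitted it ended the calls of ATF7 (0.0753), ELK3 (0.0547), CNOT1 (0.0848) and SYN1 (0.0547) and no other. FOSB, EGR2 and EGR3 have no value in fits with a filter, nor FOS with a minimum of 5 TPM. The cause of these changes was not tested.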

Other observations

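Some genes of the AP-1 partner and early response lists lay under the filter of 1 TPM and yet had separate groups; they were chosen after their values were seen. JDP2, a bZIP protein that dimerises with JUN and represses AP-1, had 0.592, 0.540 and 0.186 TPM with DMSO and 1.43, 1.35 and 1.48 TPM with NEN, and in limma without a filter it rose by 0.76 ± 0.19 (adjusted p = 0.0444). NPAS4, a calcium-induced factor of neurons, had 0.0540, 0 and 0.0300 TPM with DMSO and 0.324, 0.418 and 0.239 TPM with NEN (0.37 ± 0.09, adjusted p = 0.0419 in the same fit). CYR61, an early-induced matrix protein, was listed at 0, 0 and 0.131 TPM with DMSO and had 0.240, 0.184 and 1.07 TPM with NEN, and did not pass (adjusted p = 0.259). SIK1, of the early response list, was separate in the other direction. It had 0.0817, 0.0563 and 0.210 TPM with DMSO and 0, 0.0524 and 0 TPM with NEN. The share of all genes under the filter with separate groups was not counted. NEN replicate 3 held the most CYR61 and also the most FOS and FOSB of the 6 libraries. That library also held the most COL1A1 (4.47 TPM), COL1A2 (3.54 TPM), FN1 (12.9 TPM) and EPCAM (2.78 TPM), so it did not stand out for early genes alone.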
